A study of Mus musculus with 21 samples.

Results

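The mitochondrial ribosomal protein genes were taken as all genes whose symbol begins with Mrpl or Mrps followed by a digit, without pseudogenes. The rule found 78 genes, the same 78 in both deposited tables, among 33829 genes listed for the pre-treatment experiment and 55385 listed for the delayed treatment experiment. RNA-seq was done on midbrain of male C57BL/6 mice aged 6 weeks, with 3 mice in each of 7 groups, and the study's methods describe the dissected tissue as nigral. All injections were intraperitoneal. In the pre-treatment experiment, control mice received ddH2O for 10 days, MPTP treated mice received ddH2O for 5 days and then MPTP at 30 mg/kg/d for 5 days, and irisin pre-treatment mice received irisin at 200 ug/kg/d for 5 days and then the same MPTP course. In the delayed treatment experiment, control mice received ddH2O for 10 days, and the irisin alone group received ddH2O for 5 days and then irisin for 5 days. The MPTP treated mice of that experiment received MPTP for 5 days and then ddH2O for 5 days, and the delayed treatment mice received MPTP for 5 days and then irisin for 5 days, at the same doses. MPTP is a toxin that dopaminergic neurons take up after its conversion to MPP+, which blocks respiratory complex I, and irisin is a hormone cleaved from the membrane protein Fndc5. Nothing in the labels says that mice were pooled.

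Mitochondrial ribosomes, or mitoribosomes, translate the few mRNAs of the mitochondrial genome, all of which encode subunits of the respiratory chain and the ATP synthase. Their RNAs come from the mitochondrial genome, whereas every protein of the particle is encoded in the nucleus, made in the cytosol and imported. The large subunit joins amino acids and feeds the new chain into the inner membrane, and the small subunit reads the mRNA. Some of the proteins descend from bacterial ribosomal proteins, and others were added during the evolution of mitochondria.

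By place in the particle, 51 of the 78 genes encode proteins of the large subunit, 30 with a bacterial homologue and 21 specific to mitochondria. The small subunit is represented by 26 genes, 16 with a bacterial homologue and 10 specific to mitochondria. The letters of a symbol do not always give the place, since Mrps30 and Mrps18a encode proteins of the large subunit. Mrps36 is named as a ribosomal protein and is now placed in the 2-oxoglutarate dehydrogenase complex. The genes lie on 17 chromosomes, and 11 of them are on chromosome 11.

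Many of these genes share a start region with a neighbour. By the GENCODE annotation of GRCm38, 23 of the 78 (29.5%) have a protein-coding gene on the other strand that begins within 1000 bases upstream or overlaps the start by up to 250 bases, beside 8.34% of 21938 protein-coding genes. The partner of Mrps12 is Sars2, the mitochondrial seryl-tRNA synthetase, whose start lies 172 bases away. Mrpl36 faces Ndufs6, a complex I subunit, and their first 29 bases overlap. Mrpl49 faces Fau, which encodes a fusion with a protein of the cytosolic ribosome, at 59 bases. Mrps11 and Mrpl46, both members, overlap on opposite strands, and 12.2% of the exon bases of Mrpl46 are shared.

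Promoters from 250 bases before to 50 bases after the start were taken from RefSeq (GRCm38.p6), and 69 of the 78 genes matched by symbol. Mrpl13, Mrpl15, Mrpl19, Mrpl38, Mrpl4, Mrpl54, Mrps28, Mrps34 and Mrps35 did not match. Both strands were searched for short exact letters of factors known to act on nuclear genes for mitochondrial proteins. The NRF1 core GCATGCGC was in 8 of the 69 promoters (11.6%), beside 2.80% of all 27025 promoters and 3.602% of 17491 protein-coding ones. The ETS letters CCGGAAGT, bound by GABP among others, were in 11 (15.9%), beside 4% and 5.29%. The YY1 letters AAGATGGC were in 12 (17.4%), beside 2.88% and 3.22%. At least 1 of these letters was in 28 of the 69 (40.6%), beside 11.4% of protein-coding promoters. The letters GGGCGG of SP1 were in 49.3% of the members and in 46.3% of protein-coding promoters, CCAAT in 39.1% and 39.0%, and TATAAA in 5.80% and 13.3%. In 8 of the 12 promoters with the YY1 letters they were on the gene's own strand after the start (11.6% of the 69, beside 1.37% of protein-coding promoters). These letters contain ATG, and whether a match lies over a start codon was not examined.

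The windows below are shown because their genes recur in the results that follow or because they hold more than 1 kind of match. Each is read 5′ to 3′ on the gene's strand with the matched letters, or their reverse complement, in capitals. The capitals mark YY1 letters in Mrpl37, Mrps12, Mrps24 and the second window of Mrps27, NRF1 core letters in Mrpl17, Mrpl32, Mrpl22 and the first window of Mrpl33, and ETS letters in the others. In Mrpl32 the NRF1 core was found at 4 positions, of which those starting 87 and 85 bases before the start overlap in a palindrome and the window shows the core starting 22 bases before it.
Mrpl37 (chr4:107066824-107066849, minus strand): gcacgggcaAAGATGGCggcgtccag
Mrps12 (chr7:28742004-28742029, minus strand): atggacgcaGCCATCTTggagtggaa
Mrps24 (chr11:5707652-5707674, minus strand): cgccggcccAAGATGGCgtggtc
Mrpl17 (chr7:105811082-105811107, minus strand): cgagttactGCGCATGCgtcctctga
Mrpl32 (chr13:14613043-14613068, minus strand): ggacttaacGCATGCGCtcagcccgc
Mrpl22 (chr11:58171622-58171647, plus strand): cctcggactGCGCATGCgtatagtca
Mrpl33 (chr5:31613930-31613955, plus strand): ccggaacccGCGCATGCcccggaagt
Mrpl33 (chr5:31613939-31613964, plus strand): gcgcatgccCCGGAAGTagtcgttga
Mrps27 (chr13:99344728-99344753, plus strand): ggtaggaccACTTCCGGcggaggcgg
Mrps27 (chr13:99344791-99344816, plus strand): gtgcgctccAAGATGGCggctcccat
Mrps26 (chr2:130563733-130563758, plus strand): tccgcggccACTTCCGGgccgggcgc

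The files held 66653781 to 75637604 counts per mouse for the pre-treatment experiment, against 48843585 to 77203445 for the delayed treatment experiment. The 78 genes together took 0.235 to 0.257% and 0.249 to 0.281% of them. All 78 passed the filter on low counts, with 22641 and 21922 genes tested. All 8 dopaminergic markers (Th, Slc6a3, Slc18a2, Ddc, Aldh1a1, Pitx3, Nr4a2 and En1) were tested, and their summed level was 526 to 861 CPM (counts scaled to the library total, with TMM scaling) and 463 to 713 CPM, with 1 of the 8 at 0 in 3 mice. Choroid plexus markers (Ttr, Folr1 and Kl) summed to 1593 CPM in MPTP treated mouse 2 of the pre-treatment experiment and to 6.44 to 21.6 CPM in its other mice, and to 32.8 to 1610 CPM in the delayed treatment experiment. Same-group mice were taken as separate animals from their labels, and fewer cells of a type and less RNA per cell cannot be told apart in bulk tissue.

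The mitoribosomal genes were expressed at moderate levels in control mice. FPKM, the depth-scaled fragments per kilobase of gene that the authors deposited, allows levels of different genes to be compared. In the control mice of the pre-treatment experiment the mean FPKM of the 78 genes ran from 1.73 to 54.6 with a median of 10.4, and 82.1% of all tested genes were below that median. In the control mice of the delayed treatment experiment it ran from 1.48 to 47.4 with a median of 12.6, with 84.0% of tested genes below it. The order of the genes was alike in the 2 experiments, which share no mice (Spearman's rho across the 78 genes = 0.951, a description, since genes are not independent replicates).

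Mrps21, a protein of the small subunit, had the highest FPKM in the pre-treatment experiment (54.6 ± 5.77, SD, n = 3 control mice), followed by Mrpl41 (37.5 ± 1.68), Mrpl18 (29.7 ± 2.13), Mrpl12 (26.2 ± 0.756) and Mrpl10 (24.2 ± 2.32). Among delayed treatment control mice Mrpl41 (47.4 ± 2.07) and Mrps21 (46.7 ± 13.9) led, followed by Mrpl12, Mrpl20 and Mrpl34. Mrps21 was at 30.7, 55.5 and 54.0 FPKM in these mice, so its place after Mrpl41 rests on control mouse 1. Mrpl12 is the stalk protein of the large subunit, counterpart of bacterial L7/L12, and also binds the mitochondrial RNA polymerase. At the low end, Mrpl53 was at 1.73 ± 1.64 and 2.18 ± 0.416 FPKM and Mrpl33 at 1.97 ± 0.213 and 1.48 ± 0.303 FPKM, with Mrps35, Mrpl32 and Mrpl15 next. Of the 77 pairs of neighbours in this order, 71 and 75 differed by less than the sum of their SDs. The median FPKM was 10.9 and 12.7 for proteins of the large subunit with a bacterial homologue, 11.8 and 13.1 for those of the large subunit specific to mitochondria, 9.02 and 10.3 for those of the small subunit with a bacterial homologue, and 7.80 and 10.6 for those of the small subunit specific to mitochondria.

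The order within the family rests on gene length. The length that the deposited FPKM implies was a median of 1.55 times the length of the principal transcript, and over 2 times for 26 of the 78 genes. Mrpl33 had an implied length of 8290 bases and a principal transcript of 478 bases, and per kilobase of the latter its level in the pre-treatment controls was 34.2 CPM (rank 14 of the 78) and in the delayed treatment controls 26.0 CPM (rank 34). Per kilobase of principal transcript Mrps21 was highest in both experiments (93.5 and 80.5 CPM) and Mrpl53 was lowest. The order had a rho of 0.669 and 0.713 with the FPKM order. This alternative was chosen after the data were seen.

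**Figure D1:**
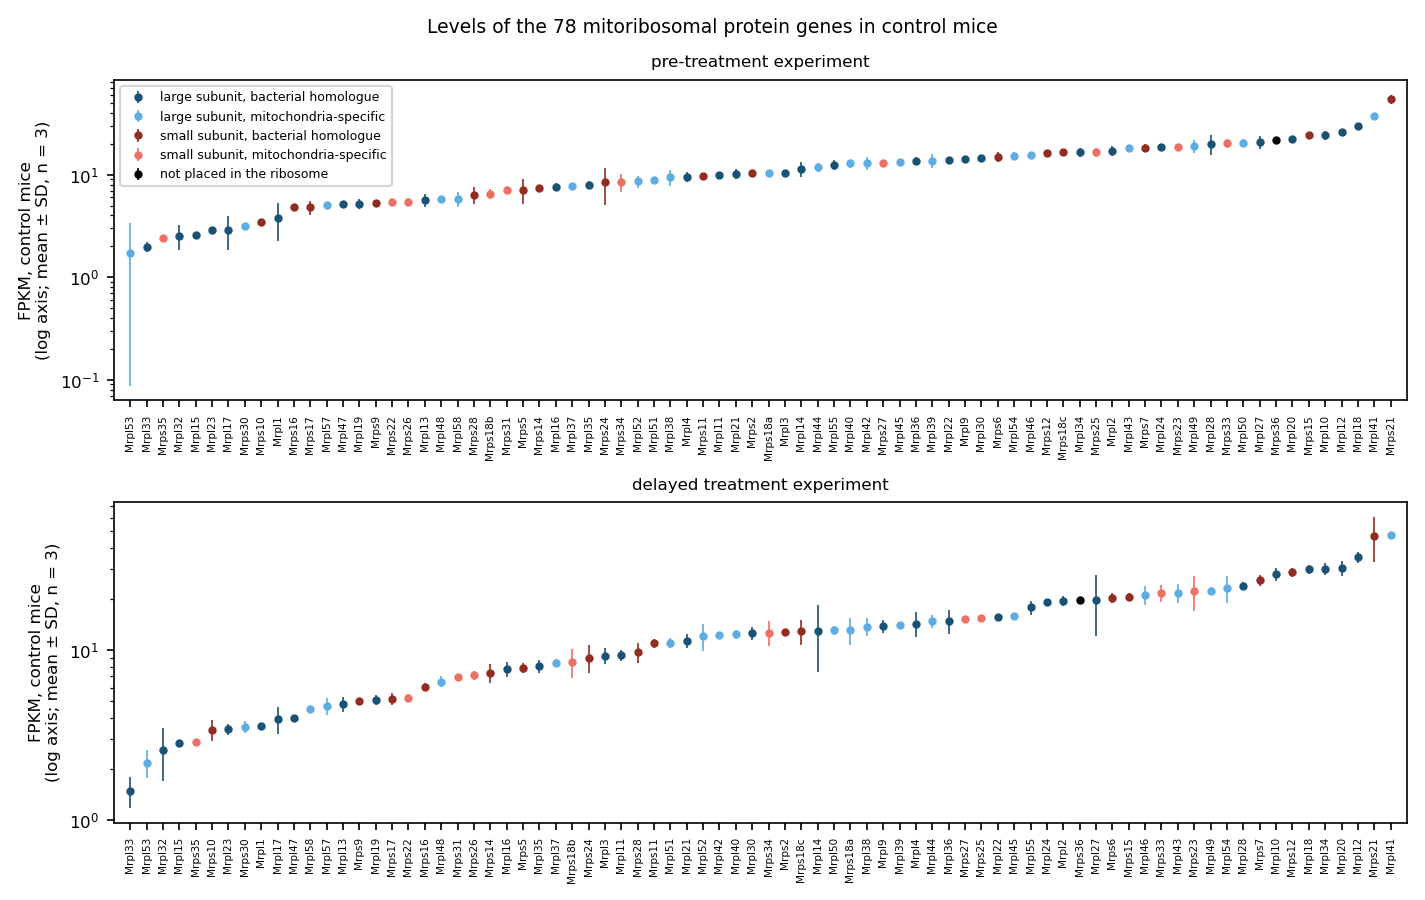
Mean FPKM with SD (n = 3 control mice; log axis) for each of the 78 genes in rising order, pre-treatment experiment above and delayed treatment experiment below, coloured by place in the mitoribosome. The means run from 1.73 to 54.6 and from 1.48 to 47.4, colours are mixed along the whole order, and the wide bar at the left of the upper panel is Mrpl53.

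Did MPTP or irisin change the expression of this family? None of the 78 genes passed an adjusted p of 0.05 in any of the 8 comparisons made (edgeR quasi-likelihood test, Benjamini-Hochberg adjustment over all tested genes). The share of all tested genes that passed was 0.0221%, 0.0707% and 0.0707% for MPTP against control, irisin pre-treatment against MPTP and irisin pre-treatment against control. In the delayed treatment experiment it was 0.132% for MPTP against control, 0.109% for irisin alone against control, 0.00456% for irisin after MPTP against MPTP, 0.109% for irisin after MPTP against control and 0.0411% for the irisin by MPTP interaction. The counts of 0 are thus read against a background in which few genes were called. The smallest adjusted p of a member over these comparisons was 0.326. At an unadjusted p under 0.05, 2 to 9 of the 78 genes passed in a comparison. DESeq2 and limma also called 0 of the 78 in each comparison, DESeq2 with a smallest adjusted p of 0.0655, for Mrps17 in MPTP treated against control mice of the delayed treatment experiment.

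The intervals show how large a change in the tissue as a whole could have been missed for a gene taken alone. They are not adjusted for the number of genes or comparisons. A change confined to a minority of the cells would be diluted in bulk tissue and could be larger. The median standard error of a member's log2 fold change was 0.10 in each pairwise comparison and 0.14 for the interaction. The 95% interval of the fold change lay within 1.5-fold in either direction for 64 to 70 of the 78 genes in the pairwise comparisons and within 2-fold for 75 or 76. The genes whose interval reached past 2-fold in some pairwise comparison were Mrpl53, Mrpl32, Mrpl17, Mrpl14 and Mrps24. In the interaction the interval was within 2-fold for 71.

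The middle of the family lay slightly below control in each treated group, by less than 0.1 on the log2 scale. In MPTP treated against control mice the median log2 fold change of the 78 genes was -0.07 with MPTP given last and -0.09 with MPTP given first, while that of all tested genes was near 0. Fold changes were negative for 56 of the 78 (71.8%, beside 50.4% of all tested genes) and for 58 (74.4%, beside 50.3%). Groups that did not overlap were seen for 10 members in the pre-treatment experiment (12.8%, beside 11.6% of all tested genes), 9 of them with all MPTP treated mice below all control mice (beside 5.93%). For the delayed treatment experiment this held for 15 members (19.2%, beside 16.2%), all 15 with MPTP treated mice below (beside 7.94%).

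Irisin given before MPTP left the family near the level of MPTP treated mice. The median was 0.00 against MPTP treated mice, with 38 of the 78 genes lower (48.7%, beside 49.3% of all tested genes), and -0.04 against control mice, with 52 lower (66.7%, beside 49.2%). Irisin given after MPTP had a median of 0.03 against MPTP treated mice, with 36 genes lower (46.2%, beside 50.1%), and -0.08 against control mice, with 57 lower (73.1%, beside 50.1%). In mice given irisin without MPTP the median was -0.08 and 59 of the 78 genes were lower than in control mice (75.6%, beside 50.5%). The interaction had a median of 0.07, with 22 negative (28.2%, beside 49.5%). Groups did not overlap for 6 members in irisin pre-treatment against MPTP (beside 14.2% of all tested genes), 7 in irisin pre-treatment against control (beside 13.6%), 10 in irisin alone against control (beside 15.1%), 11 in irisin after MPTP against MPTP (beside 10.7%) and 16 in irisin after MPTP against control (beside 14.7%). Against control, 7 of these were lower with irisin pre-treatment (8.97%, beside 6.92%) and 0 higher (beside 6.65%). With irisin alone 9 were lower (11.5%, beside 7.68%) and 1 higher (1.28%, beside 7.43%). With irisin after MPTP 13 were lower (16.7%, beside 7.17%) and 3 higher (3.85%, beside 7.51%). Against MPTP, 1 was lower with irisin pre-treatment (1.28%, beside 7.08%) and 5 higher (6.41%, beside 7.14%). With irisin after MPTP 5 were lower (6.41%, beside 5.38%) and 6 higher (7.69%, beside 5.35%). The comparisons with control mice within an experiment share those 3 mice, so their directions are not independent of each other.

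**Figure D2:**
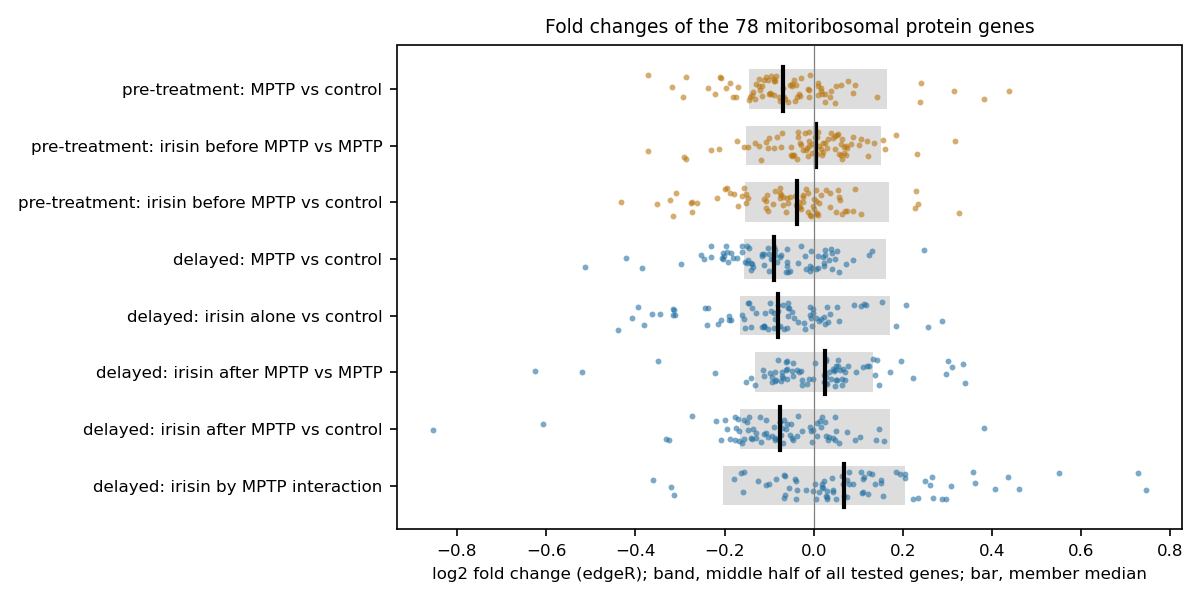
Log2 fold changes (x axis) of the 78 genes in each of the 8 comparisons, 1 point per gene, with the member median as a black bar and the interquartile range of all tested genes as a grey band. Medians lie between -0.09 and 0.07, and the bars left of 0 are those of the comparisons with control mice.

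These medians lean on 1 control mouse in each experiment. Each gene's log2 CPM was set against its own mean over the mice of its experiment. Control mouse 3 of the pre-treatment experiment had a median of 0.11 over the 78 genes, with 63 above their mean, and the other 8 mice had medians between -0.06 and 0.04. Among delayed treatment mice, control mouse 1 had a median of 0.14, with 67 above, and the other 11 mice had medians between -0.05 and 0.04. The medians over all tested genes were 0.01 to 0.02 in every mouse. Both control mice held the highest share of counts in member genes of their experiment, at 0.257% and 0.281%. This share rests on the same counts as the medians and is no separate observation.

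Without control mouse 3, the median of MPTP treated against control mice in the pre-treatment experiment was -0.03 and 50 of the 78 genes were lower, and that of irisin pre-treatment against control mice was -0.01 with 44 lower. Without control mouse 1, the delayed treatment medians against control mice were -0.05 for MPTP with 48 lower, -0.03 for irisin alone with 47 lower, and -0.03 for irisin after MPTP with 47 lower. The direction was kept in each. These mice were picked as the highest for the same genes, so the smaller size without them followed from the choice. Leaving out any 1 mouse of an experiment, the median for MPTP against control lay between -0.10 and -0.03 in the pre-treatment experiment. In the delayed treatment experiment it lay between -0.11 and -0.05. The SD of the member median between mice of a group was 0.04 and 0.05 on the same scale.

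Control mouse 1 of the delayed treatment experiment had the fewest counts of its experiment (48843585). Its astrocyte markers (Aqp4, Gfap and Aldh1l1) summed to 1134 CPM, beside 770 to 1022 CPM in the treated mice and 870 and 909 CPM in the other control mice. Its dopaminergic markers summed to 713 CPM, beside 676 and 712 CPM in the other control mice, and its choroid plexus markers to 1466 CPM, beside 1313 and 225 CPM. Control mouse 3 of the pre-treatment experiment was within the range of the other control mice for dopaminergic and choroid plexus markers (770 and 10.1 CPM). The part of depth or tissue makeup in the member levels of these mice was not tested.

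**Figure D3:**
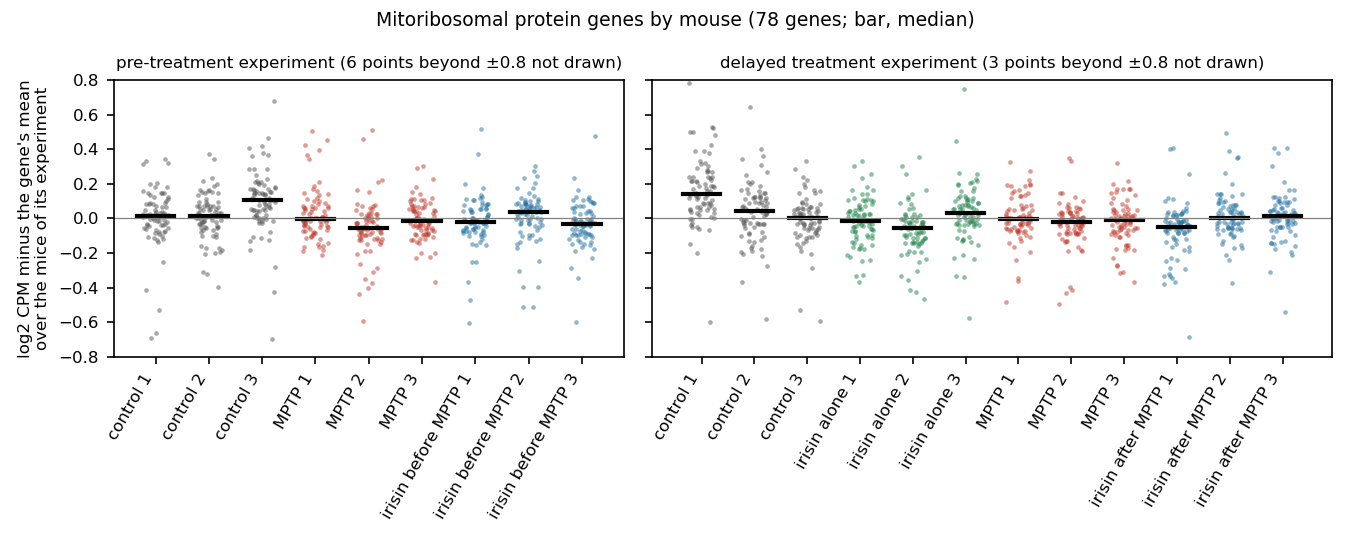
Deviation of each of the 78 genes (points) from its mean over the mice of its experiment, in log2 CPM, by mouse, with the median as a black bar. The bars of control mouse 3 on the left (0.11) and control mouse 1 on the right (0.14) stand above those of the other mice. Axes stop at ±0.8, and 6 and 3 points lie beyond.

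Within groups the members varied together to a small degree. The mean correlation between the residuals of 2 members across mice, after removal of group means, was 0.10 over 9 mice and 0.18 over 12 mice. For pairs of all tested genes it was 0.00, a value that scaling between libraries tends to keep near 0. Sets of other genes of like level and spread were not compared. Without the control mouse named above the correlation between members was 0.06 and 0.10. These points share libraries and depth.

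By place in the particle the medians ran from -0.13 to -0.02 for MPTP against control. In MPTP treated against control mice of the delayed treatment experiment, the median was -0.05 for the 30 proteins of the large subunit with a bacterial homologue, -0.11 for the 21 of the large subunit specific to mitochondria, -0.13 for the 16 of the small subunit with a bacterial homologue and -0.08 for the 10 of the small subunit specific to mitochondria. For pre-treatment mice the same medians were -0.08, -0.06, -0.06 and -0.02. The order of the classes thus differed between the experiments, and differences between classes were not tested. For irisin after MPTP against MPTP, the median was -0.05 for proteins of the large subunit with a bacterial homologue, with 12 of 30 higher, and 0.04 for those of the large subunit specific to mitochondria, with 15 of 21 higher.

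Across the 2 experiments, 43 members were lower and 7 higher in MPTP treated mice of both, and 28 went in opposite directions. Since 56 and 58 of the 78 were lower in each, many would be lower in both without agreement between genes. The same count over all tested genes was not made. The fold changes of MPTP in the 2 experiments, which share no mice, had a Pearson's r of 0.06 and a Spearman's rho of 0.11 across the 78 genes. For irisin with MPTP against MPTP, 22 were higher in both, 18 lower in both and 38 opposite, with r = 0.10 and rho = 0.06. The genes furthest from control in 1 experiment were therefore mostly not those of the other.

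The members with the smallest p are given next with the CPM of each mouse. CPM is not corrected for length and serves comparisons of a gene with itself. At an unadjusted p under 0.05, 4, 2 and 4 of the 78 genes passed in the comparisons of the pre-treatment experiment. The shares of all tested genes were 6.03%, 6.22% and 7.12%, so such p-values were no more frequent among members, both directions counted together. By direction, MPTP against control had 4 lower (5.13%, beside 2.67%) and 0 higher (beside 3.36%). Irisin pre-treatment against MPTP had 1 lower (beside 3.29%) and 1 higher (beside 2.93%). Irisin pre-treatment against control had 4 lower (5.13%, beside 3.63%) and 0 higher (beside 3.49%).

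Mrpl21 encodes a protein of the large subunit with a bacterial homologue and lies on chromosome 19 at 3282901 to 3292837 (plus strand, GRCm38). Its CPM was 25.2, 20.8 and 23.1 in control mice of the pre-treatment experiment, 17.3, 19.0 and 17.1 in MPTP treated mice and 21.6, 18.2 and 19.6 in irisin pre-treatment mice. MPTP treated mice were below all control mice, and irisin pre-treatment mice overlapped both. The log2 fold change for MPTP was -0.37 ± 0.10 (SE; unadjusted p = 0.00635, adjusted p = 0.786). For the delayed treatment experiment the CPM was 27.9, 26.6 and 23.3 CPM in control mice, 20.7, 19.3 and 22.4 with irisin alone, 23.8, 23.0 and 20.7 with MPTP and 24.9, 22.2 and 22.6 with irisin after MPTP. There the fold change was -0.20 for MPTP (unadjusted p = 0.0616) and -0.31 for irisin alone (unadjusted p = 0.00801, adjusted p = 0.435).

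Mrpl54, specific to the mitochondrial large subunit, lies on chromosome 10 at 81264713 to 81266934 (minus strand), its start 26 bases from that of Apba3. Its pre-treatment CPM was 13.9, 13.5 and 15.2 in control mice, 11.7, 10.98 and 11.5 in MPTP treated mice and 13.1, 15.2 and 14.2 in irisin pre-treatment mice. The 3 MPTP treated mice were the lowest of the 9. The fold change was -0.32 ± 0.09 for MPTP against control (unadjusted p = 0.0087, adjusted p = 0.815) and 0.32 ± 0.09 for irisin pre-treatment against MPTP (unadjusted p = 0.00897, adjusted p = 0.577), both of which use the same MPTP treated mice. The delayed treatment experiment gave 26.3, 19.4 and 19.4 CPM in control mice, 18.4, 16.2 and 17.6 with irisin alone, 17.2, 19.0 and 19.2 with MPTP and 15.2, 18.2 and 18.5 with irisin after MPTP. All treated mice were below the control mice there, and control mouse 1 stood alone at 26.3 CPM. Its fold change for irisin after MPTP against control was -0.32 (unadjusted p = 0.0301) and, leaving out each mouse of that experiment in turn, lay between -0.40 and -0.17.

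Mrps6, a protein of the small subunit with a bacterial homologue, lies on chromosome 16 at 92058270 to 92112227 (plus strand). In the pre-treatment experiment it was at 22.4, 28.3 and 27.4 CPM in control mice, 26.2, 28.3 and 26.3 in MPTP treated mice and 20.5, 22.8 and 19.2 in irisin pre-treatment mice. The irisin pre-treatment mice were below all MPTP treated mice and overlapped control mouse 1. The fold change against MPTP treated mice was -0.37 ± 0.11 (unadjusted p = 0.00861, adjusted p = 0.565), the smallest p of a member in that comparison. Against control mice Mrps6 also had an unadjusted p under 0.05. That fold change lay between -0.43 and -0.26 leaving out each mouse in turn. With irisin after MPTP its fold change against control mice was -0.17 (unadjusted p = 0.0727). In the GENCODE annotation 19.9% of its exon bases are shared with Gm49711 on the same strand.

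Other members under an unadjusted p of 0.05 in the pre-treatment experiment had log2 fold changes between -0.32 and -0.18. They were Mrpl16 (-0.21) and Mrpl43 (-0.18) for MPTP against control, and Mrpl52 (-0.31), Mrpl57 (-0.26) and Mrpl36 (-0.32) for irisin pre-treatment against control. Mrpl43 shares 33.4% of its exon bases with Twnk, the mitochondrial DNA helicase, on the other strand.

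Across the delayed treatment comparisons 4, 9, 3, 7 and 5 of the 78 genes had an unadjusted p under 0.05 for MPTP, irisin alone, irisin after MPTP against MPTP, irisin after MPTP against control, and the interaction. The shares of all tested genes were 8.33%, 8.97%, 3.9%, 9.31% and 5.57%. With both directions counted together the share of the members (5.13%, 11.5%, 3.85%, 8.97% and 6.41%) was near the background. For MPTP 4 were lower (5.13%, beside 4.01%) and 0 higher (beside 4.32%). For irisin alone 8 were lower (10.3%, beside 4.44%) and 1 higher (beside 4.53%). Irisin after MPTP against MPTP had 2 lower (2.56%, beside 1.85%) and 1 higher (beside 2.06%). For irisin after MPTP against control 7 were lower (8.97%, beside 4.59%) and 0 higher (beside 4.72%). The interaction had 5 higher (6.41%, beside 2.81%) and 0 lower (beside 2.76%).

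Mrps17 had the smallest p of a member in 2 of these comparisons. It encodes a protein of the small subunit that binds the small rRNA and has a bacterial homologue, and lies on chromosome 5 at 129715497 to 129722556 (plus strand). Its CPM was 36.8, 41.4 and 35.99 in control mice, 30.8, 24.8 and 30.5 with irisin alone, 24.4, 27.5 and 28.1 with MPTP and 33.4, 40.03 and 27.8 with irisin after MPTP. Mice given MPTP or irisin alone were below all control mice, and mice given irisin after MPTP spanned the range from MPTP treated to control mice. The log2 fold change was -0.51 ± 0.13 for MPTP against control (unadjusted p = 0.00289, adjusted p = 0.326), -0.41 ± 0.13 for irisin alone (unadjusted p = 0.0116) and 0.34 ± 0.13 for irisin after MPTP against MPTP (unadjusted p = 0.0288). The interaction, the change with irisin after MPTP minus that with irisin alone, was 0.75 ± 0.19 (95% interval 0.33 to 1.17, unadjusted p = 0.00242, adjusted p = 0.619). The pre-treatment mice gave 39.1, 29.8 and 37.5 CPM in control mice, 37.7, 26.3 and 39.9 in MPTP treated mice and 33.9, 34.0 and 31.0 in irisin pre-treatment mice, with full overlap.

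Mrps34, specific to the mitochondrial small subunit, lies on chromosome 17 at 24895116 to 24897502 (plus strand). It was at 35.3, 27.9 and 26.0 CPM in control mice, 21.7, 21.4 and 22.7 with irisin alone, 25.5, 23.1 and 19.8 with MPTP and 24.1, 25.4 and 24.3 with irisin after MPTP. All 9 treated mice were below the 3 control mice. The fold change was -0.38 ± 0.12 for MPTP (adjusted p = 0.412), -0.44 ± 0.12 for irisin alone (adjusted p = 0.395) and -0.27 ± 0.12 for irisin after MPTP against control (adjusted p = 0.528). Leaving out each mouse in turn, the change for MPTP lay between -0.47 and -0.25. The pre-treatment groups overlapped, with means of 19.7 ± 3.51, 19.6 ± 1.55 and 19.4 ± 1.30 CPM. Of its exon bases 63.4% are shared with Mapk8ip3 on the other strand, and the use of strand in counting is not given in the sources used here.

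Mrpl37, specific to the mitochondrial large subunit, lies on chromosome 4 at 107055874 to 107066868 (minus strand). It was at 45.1, 42.5 and 40.4 CPM in control mice, 39.0, 40.6 and 40.1 with irisin alone, 45.0, 42.8 and 44.6 with MPTP and 35.98, 38.5 and 39.0 with irisin after MPTP. Mice given irisin after MPTP were below all MPTP treated and all control mice. The fold change against MPTP was -0.22 ± 0.06 (unadjusted p = 0.00558, adjusted p = 0.9995). This p was the smallest of a member in that comparison. It ranked 87th of the 21922 tested genes, of which 1 passed the adjusted threshold.

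**Figure D4:**
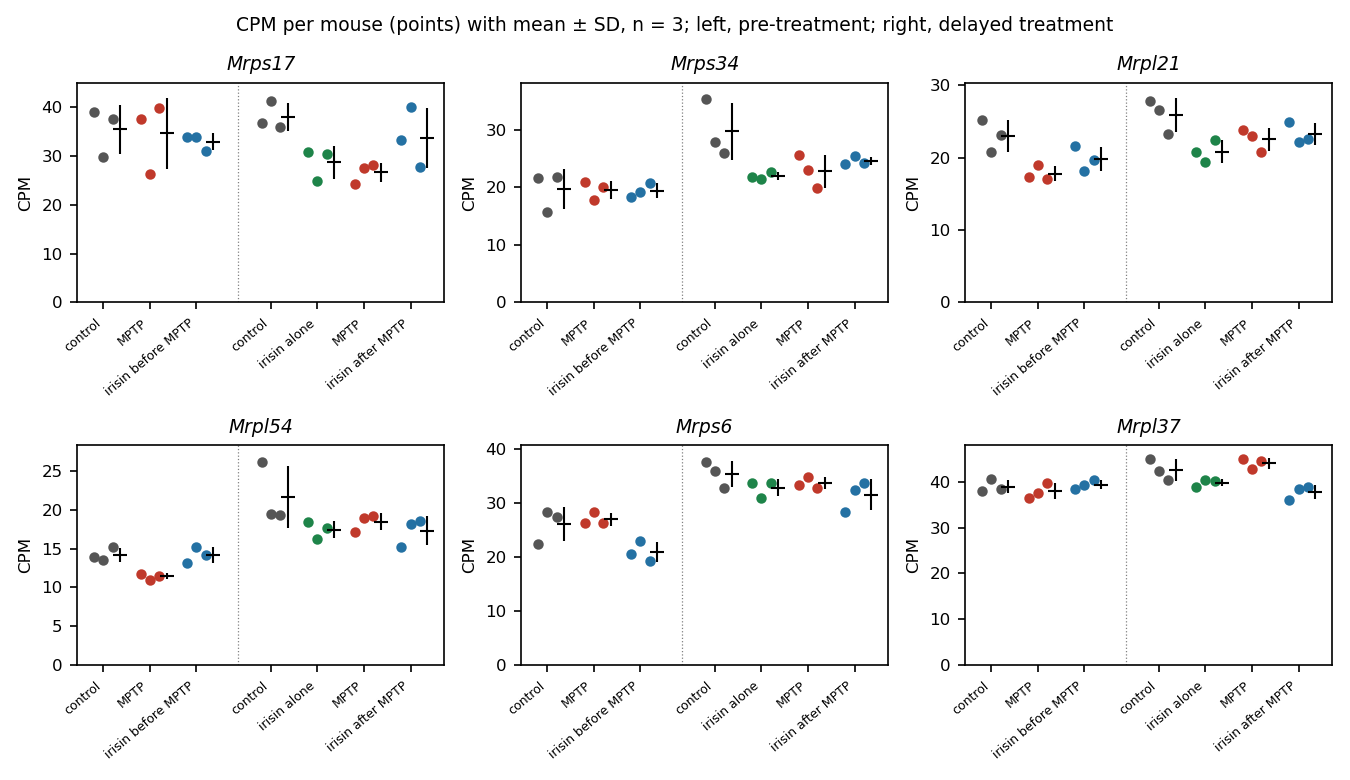
CPM of 6 members with low p-values in each mouse (points), with mean ± SD (n = 3) at the right of each group, the pre-treatment experiment left and the delayed treatment experiment right of the dotted line. Mrps17 was at 35.99 to 41.4 CPM in the control mice of the delayed treatment experiment and at 24.4 to 28.1 CPM in the MPTP treated mice.

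The remaining members under an unadjusted p of 0.05 in the delayed treatment experiment were Mrpl22 (-0.30) and Mrps15 (-0.19) for MPTP against control. For irisin alone they were Mrps12 (-0.24), Mrpl4 (-0.38), Mrpl34 (-0.31), Mrpl38 (-0.19), Mrps22 (0.21) and Mrpl54 (-0.39 to -0.16 leaving out each mouse in turn). Mrps22 was the only member of the 9 that was higher with irisin alone. Against control, Mrps26 (-0.21), Mrpl20 (-0.19), Mrpl53 (-0.85) and Mrpl37 (-0.21 to -0.13 leaving out each mouse in turn) had such a p in mice given irisin after MPTP. In the interaction they were Mrps34 (0.55), Mrpl21 (0.36), Mrps12 (0.27) and Mrpl34 (0.46). Each of these interaction values is positive and each uses the same control mice.

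The 3 paralogues of bacterial S18 had different levels and no called change. Mrps18a, in the large subunit, was at 43.5 ± 2.70 CPM in pre-treatment control mice, against 55.2 ± 10.0 CPM in delayed treatment control mice. Mrps18b, in the small subunit, was at 15.4 ± 1.85 and 20.3 ± 3.95 CPM. Mrps18c, which takes the place of S18 itself, was at 20.1 ± 1.27 and 15.8 ± 2.59 CPM. Log2 fold changes for MPTP were -0.17 and -0.20 for Mrps18a, 0.03 and -0.16 for Mrps18b and -0.09 and -0.21 for Mrps18c, and the smallest unadjusted p of the 3 genes over all comparisons was 0.0525.

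Members with a further role also had no called change. Mrpl12, the partner of the mitochondrial RNA polymerase, was at 45.3 ± 1.30, 43.0 ± 1.64 and 43.2 ± 1.89 CPM in control, MPTP treated and irisin pre-treatment mice, with a fold change for MPTP of -0.08 (unadjusted p = 0.292) and, in the delayed treatment experiment, 0.02 (unadjusted p = 0.755). Mrpl58, a peptidyl-tRNA hydrolase that frees stalled chains, was at 21.9 ± 3.66, 28.6 ± 5.87 and 25.8 ± 9.06 CPM in the same groups, and every group overlapped the others. Its fold change for MPTP was 0.38 ± 0.26 (unadjusted p = 0.170), beside the member median of -0.07, and its within-group SD of 0.37 on the log2 scale was above the member median of 0.10. Mrps36 was at 31.5 ± 1.92, 29.4 ± 1.63 and 27.8 ± 2.32 CPM, with a fold change of -0.18 for irisin pre-treatment against control (unadjusted p = 0.0806).

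Most members were steady between mice of a group, and a few were not. The median within-group SD of a member was 0.10 and 0.11 on the log2 scale, beside 0.27 and 0.25 for all tested genes. The members also had higher levels, with a median control FPKM of 10.4 and 12.6, beside 2.09 and 2.15 for all tested genes. The SD was not compared with that of genes of like level. Mrpl32, a zinc-binding protein of the large subunit, had an SD of 0.46 and 0.47. Pre-treatment mice were at 18.7, 11.98 and 12.3 CPM in control mice, 21.3, 20.6 and 11.6 in MPTP treated mice and 10.8, 12.2 and 20.9 in irisin pre-treatment mice. The mice fell at 10.8 to 12.3 CPM (5 mice) or at 18.7 to 21.3 CPM (4 mice), with both levels in each group. Mrpl32 in the delayed treatment experiment was at 17.9, 17.2 and 8.87 CPM in control mice, 14.5, 16.5 and 8.94 with irisin alone, 16.8, 9.91 and 10.3 with MPTP and 17.7, 17.0 and 10.8 with irisin after MPTP. Again both levels occurred in each group, at 8.87 to 10.8 CPM (5 mice) and 14.5 to 17.9 CPM (7 mice).

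Mrpl17 had a similar split in the pre-treatment experiment, at 17.8 to 21.8 CPM in 3 mice and 32.6 to 36.4 CPM in 6. The lower 3 were control mice 1 and 3 and irisin pre-treatment mouse 2. Mrps24 was at 7.69 to 8.60 CPM in 4 mice and 14.3 to 18.7 CPM in 5 of that experiment, again with both levels in every group. Mrps24 among delayed treatment mice was at 17.9, 12.2 and 15.2 CPM in control mice, 10.7, 13.8 and 10.7 with irisin alone, 12.7, 15.9 and 14.0 with MPTP and 7.72, 10.8 and 11.3 with irisin after MPTP. The fold change for irisin after MPTP was -0.52 ± 0.18 against MPTP treated mice (unadjusted p = 0.0157) and -0.61 ± 0.18 against control mice (unadjusted p = 0.00674, adjusted p = 0.389). Its exons overlap those of Urgcp on the same strand by 15.4%.

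Mrpl53 varied most, with an SD of 1.63 in the pre-treatment experiment. It was at 1.37, 0.177 and 3.05 CPM in control mice, 1.48, 2.19 and 1.19 in MPTP treated mice and 0.178, 2.88 and 1.09 in irisin pre-treatment mice. Its lowest raw count was 12, in control mouse 2. Over the delayed treatment mice it ranged from 0.787 to 2.54 CPM. In the annotation 88.0% of its exon bases are shared with Gm42688, a protein-coding gene on the same strand, so how its reads were assigned depends on the counting. The part of shared exons in the spread of Mrpl53 and Mrps24 was not tested.

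**Figure D5:**
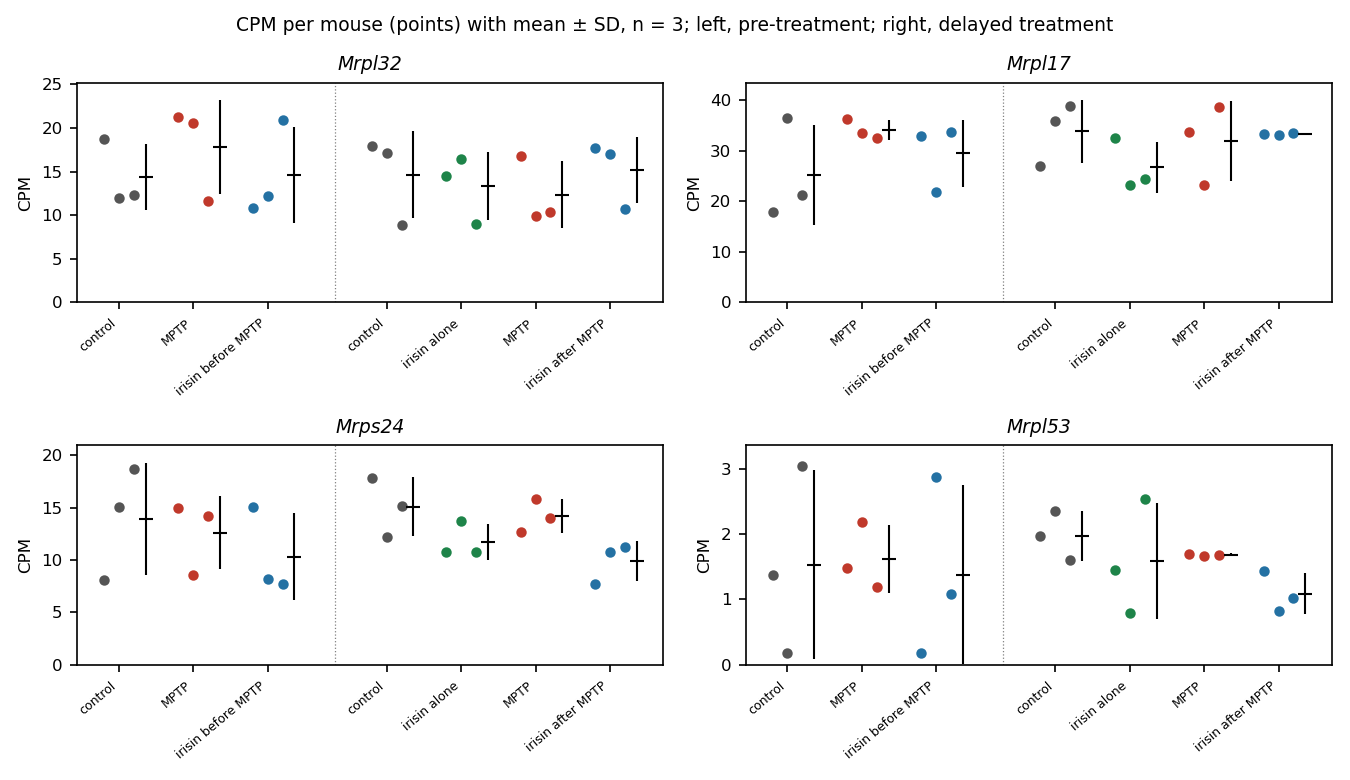
CPM of 4 members with a wide spread within groups in each mouse (points), with mean ± SD (n = 3), the pre-treatment experiment left and the delayed treatment experiment right of the dotted line. Mrpl32 (10.8 to 12.3 or 18.7 to 21.3 CPM on the left) lies at separate levels in every group of the pre-treatment experiment.

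Genes that act with the family were examined from lists. Of 5 mitoribosomal proteins with other names (Dap3, Ptcd3, Chchd1, Aurkaip1 and Gadd45gip1), 12 mitochondrial translation factors and 20 assembly factors, none passed the adjusted threshold in any comparison. For MPTP against control the assembly factors had a median of -0.07 with 13 of 20 lower in the pre-treatment experiment and -0.02 with 11 lower in the delayed treatment experiment. The translation factors had medians of 0.01 in both. For irisin pre-treatment against MPTP the assembly factors had a median of 0.13 with 14 of 20 higher, beside 0.00 with 40 of 78 higher for the members, a difference that was not tested. Rbfa, which helps to mature the small subunit, was at 28.3 ± 1.83 CPM in control mice of the delayed treatment experiment, 22.5 ± 0.771 with irisin alone, 23.4 ± 0.512 with MPTP and 23.4 ± 1.67 with irisin after MPTP. Its fold change was -0.33 ± 0.08 for irisin alone (unadjusted p = 0.00166, adjusted p = 0.302) and -0.27 ± 0.08 for MPTP (unadjusted p = 0.00532, adjusted p = 0.384). Mtrf1, a release factor, was at 6.31 ± 0.398 CPM with MPTP and 8.70 ± 0.418 CPM with irisin after MPTP, a fold change of 0.46 ± 0.11 (unadjusted p = 0.00177, adjusted p = 0.9995).

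The mitochondrial rRNAs, which form the core of the same particle, did not pass the adjusted threshold either. In the pre-treatment experiment mt-Rnr1 and mt-Rnr2 together were at 10817, 11075 and 11358 CPM in control mice, 11625, 9588 and 11365 in MPTP treated mice and 8270, 8976 and 9791 in irisin pre-treatment mice. The irisin pre-treatment mice were below all control mice and overlapped MPTP treated mouse 2. The fold change against control was -0.34 for mt-Rnr1 (unadjusted p = 0.00583, adjusted p = 0.455) and -0.27 for mt-Rnr2 (unadjusted p = 0.00779, adjusted p = 0.489). Against MPTP treated mice it was -0.28 for mt-Rnr1 (unadjusted p = 0.0177, adjusted p = 0.664) and -0.26 for mt-Rnr2 (unadjusted p = 0.00825, adjusted p = 0.559). In the same irisin pre-treatment mice the 4 red blood cell markers (Hba-a1, Hba-a2, Hbb-bs and Hbb-bt) summed to 229 to 453 CPM, beside 527 to 820 CPM in control and 546 to 806 CPM in MPTP treated mice. All 4 had an unadjusted p under 0.05 in both comparisons, with median fold changes of -0.88 and -0.94 against control and MPTP, and none passed the adjusted threshold. Their part in the rRNA values was not tested. Delayed treatment mice had an rRNA sum of 5861 to 6721 CPM in control mice, 6235 to 8112 with irisin alone, 5728 to 6646 with MPTP and 6650 to 7218 with irisin after MPTP. Mice given irisin after MPTP were above all MPTP treated mice by a narrow margin and overlapped the other groups. Against control mice mt-Rnr1 had a fold change of 0.22 with irisin after MPTP (unadjusted p = 0.0347, adjusted p = 0.502). How rRNA was removed from the libraries is not given in the sources used here, and its part in these values was not tested.

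In the same libraries the dopaminergic markers of delayed treatment mice given MPTP had a summed level below that of all control mice, at 463 to 587 CPM with MPTP and 474 to 545 CPM with irisin after MPTP, beside 676 to 713 CPM in control mice. With irisin alone they were at 633 to 641 CPM. The summed level in pre-treatment mice was 526 to 823 CPM in control, 541 to 861 CPM in MPTP treated and 538 to 631 CPM in irisin pre-treatment mice, and these groups overlapped. There the median fold change of the 8 markers was 0.16 for MPTP against control, with 5 higher, and with irisin pre-treatment -0.43 against both MPTP and control, with all 8 negative. None of the 8 markers passed the adjusted threshold in any comparison, and their part in the member values was not tested.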

How the data were processed

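RNA-seq of 21 mice in 7 groups of 3 was analysed. The authors counted reads per gene with featureCounts on libraries sequenced on an Illumina NovaSeq and deposited raw counts and FPKM values for every gene and mouse. The submitters' processing notes name HISAT, StringTie, edgeR and mm9, while the coordinates in the tables are those of GRCm38. Tests were two-sided quasi-likelihood tests on the counts (edgeR 4.0.16 in R 4.3.3, TMM scaling, low counts removed by filterByExpr at a minimum count of 10 and total of 15), all groups of an experiment in 1 fit and the experiments separately. Benjamini-Hochberg adjustment ran over every gene tested, and calls needed an adjusted p under 0.05. The test was checked on simulated data. Alternatives were DESeq2 1.42.0, limma 3.58.1 on log2(FPKM + 1), other scaling, filter and design, and leaving out each mouse. The genes and lists were chosen with earlier results of these data known. Fold changes were given for the 10 members with the smallest p in a comparison, the 5 highest and 5 lowest by FPKM, the S18 paralogues, Mrpl12, Mrpl58, Mrps36 and genes of the lists. A depth of 48843585 to 77203445 counts gave each member at least 12 counts in every mouse. P-values measure the spread between the mice sequenced.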

Additional observations from a re-analysis of the deposited data

How the results depend on the processing

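The count of members past the adjusted threshold was 0 in each of the 8 comparisons under each of the alternatives run, namely median-ratio scaling, no filter, DESeq2 without a filter, limma on log2(FPKM + 1), the 2 compared groups only (not run for the interaction), the replicate number as a block and leaving out each mouse, with a smallest adjusted p of 0.0655. The median member fold change differed from its reported value by more than the spread between mice in 3 of 101 alternative fits, all without control mouse 1 of the delayed treatment experiment: -0.032 for irisin alone, -0.029 for irisin after MPTP against control and 0.021 for the interaction, where 34 genes were negative in place of 22. Leaving out each mouse, the median lay between -0.10 and -0.03 (MPTP), -0.01 and 0.02 (irisin pre-treatment against MPTP) and -0.07 and -0.01 (irisin pre-treatment against control). In the delayed treatment experiment it lay between -0.11 and -0.05 (MPTP), -0.10 and -0.032 (irisin alone), -0.01 and 0.03 (irisin after MPTP against MPTP), -0.10 and -0.029 (irisin after MPTP against control) and 0.021 and 0.10 (interaction), and the count stayed at 0. Of 1010 fits of the named members, 1 changed sign: Mrpl15, irisin pre-treatment against MPTP, was 0.015 without MPTP treated mouse 1 and lay between -0.26 and 0.015 when each mouse was left out. Per kilobase of principal transcript, 1 and 3 of the 5 highest members by FPKM remained among the highest 5; this setting and the counts of negative genes without a mouse were chosen after seeing the data. Same-numbered mice were different animals, and their deviations had correlations of -0.08 to 0.10 and -0.08 to 0.04 across all tested genes, so the numbers did not pair them. With the replicate block 3, 2, 3, 3, 7, 3, 5 and 5 members had an unadjusted p under 0.05, the smallest adjusted p was 0.501, and the median for MPTP was -0.07 and -0.09. Mrpl53 had as few as 12 counts in a mouse, and the next lowest count of a member was 268, for Mrps28.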

Other observations

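Rows for 4 pseudogenes (pre-treatment table) and 5 pseudogenes (delayed treatment table) of the family were left out of the member list. Mrpl48-ps held a median of 243 counts per pre-treatment mouse and 170 per delayed treatment mouse, and its counts summed over mice were 6.44% and 5.26% of those of Mrpl48. Mrpl23-ps1 held a median of 30 and 42 counts (3.33% and 4.07% of Mrpl23), and Mrps36-ps2 held 60 and 37 (3.09% and 2.14% of Mrps36). Mrps36-ps3 was at 0 counts in all 12 mice of the delayed treatment experiment. How reads shared between a gene and its copy were assigned is not given in the sources used here, so the counts of Mrpl48, Mrpl23 and Mrps36 are uncertain.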
